A study of Caenorhabditis elegans with 9 samples.

Results

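The 5 superoxide dismutase genes and 3 catalase genes of Caenorhabditis elegans (sod-1 to sod-5 and ctl-1 to ctl-3) were followed on 9 expression arrays. Members were chosen by gene name, and a gene was measured where a probe set was annotated to it alone. That held for 6 of the 8 genes, out of 17118 genes named in this way on the array. ctl-1 and ctl-3 share 1 probe set annotated to both, which can be assigned to neither and was left out. Total RNA of whole animals went onto each array. The labels give the stage as first-stage (L1) larvae, obtained by bleaching from worms fed OP50 bacteria. The aex-3 SUMO group (3 arrays, strain JS62) carried aex-3::his-SUMO-1, a His-tagged SUMO-1 behind the promoter of aex-3, a neuronal gene. The myo-4 SUMO group (3 arrays, strain JS63) carried myo-4::his-SUMO-1. The gene myo-4, now called unc-54, makes the major myosin of body wall muscle and lends this transgene its promoter. N2, the wild-type laboratory strain without a transgene, was the control (3 arrays). Each transgene is represented by a single strain, so an effect of the transgene and one of the strain cannot be told apart. The study describes the 3 arrays of a group as separate replicate populations.

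Superoxide dismutases turn superoxide, a by-product of respiration, into hydrogen peroxide and oxygen, and catalases break hydrogen peroxide down to water and oxygen. In C. elegans, sod-1 encodes the main cytosolic enzyme of the copper and zinc type, sod-5 a minor cytosolic one and sod-4 an extracellular one. sod-2 and sod-3 encode manganese enzymes of mitochondria. ctl-1 encodes a cytosolic and ctl-2 a peroxisomal catalase. sod-3 is widely used as a reporter of DAF-16, the FOXO transcription factor that acts below the insulin receptor. SUMO is a small protein that is attached to other proteins and changes their activity or location. RNA of whole animals was measured here, so fewer cells that express a gene and less RNA per cell cannot be told apart.

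In both SUMO lines the signals of ctl-2 and sod-4 fell, by about 25% to 38%, and their arrays did not overlap those of N2. Of all tested probe sets, 56.4% did not overlap N2 in aex-3 SUMO and 52.3% in myo-4 SUMO. With each array centred on its median, ctl-2 no longer passed the test in myo-4 SUMO (limma, adjusted p = 0.0638). The sod-1 signal was 14.4% to 16.4% higher in the SUMO lines, again without overlap, but did not pass the test with the deposited scaling. The signal of sod-2 differed from N2 by less than 6%, inside the spread of the N2 arrays. sod-3 and sod-5 were dim, and their groups overlapped. No member differed between the myo-4 SUMO and aex-3 SUMO lines in the test.

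The smo-1 transcript, which encodes the worm's own SUMO, lay at 957 to 1078 in aex-3 SUMO, and in myo-4 SUMO at 887 to 1055, against 512 to 715 in N2. Whether that probe set also detects the transgene is unknown. Arrays of the same group correlated at r = 0.963 or more, a value taken across probe sets, which are not independent. The array medians were 23.2 to 24.6 in aex-3 SUMO, 24.8 to 25.7 in myo-4 SUMO and 27.6 to 28.6 in N2. Each array had been scaled to the same trimmed mean, so this offset between SUMO and N2 arrays cannot be told apart from the group difference. Values are linear array signal (intensity), and group values are mean ± SD (n = 3). Changes are log2 fold changes ± SE from limma over all 9 arrays, with p-values adjusted over the 14204 probe sets bright enough to test, and "called" means an adjusted p under 0.05. To be tested, a probe set had to exceed the 40th percentile of the signals on 3 or more arrays. Of the 6 members, 5 passed it and sod-5 did not.

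The probe set of sod-1 (192125_s_at, gene on chromosome II) had signals of 1102, 1059 and 1068 on the aex-3 SUMO arrays. The myo-4 SUMO arrays had 1033, 1081 and 1059, and the N2 arrays 912, 949.5 and 911. Every SUMO array lay above every N2 array, and the SUMO lines overlapped each other. The means were 1076 ± 22.7 in aex-3 SUMO, 1058 ± 23.7 in myo-4 SUMO and 924 ± 21.96 in N2, so the spread within each group was a small part of the difference. The change was 0.22 ± 0.09 for aex-3 SUMO against N2 (limma, adjusted p = 0.0559) and 0.19 ± 0.09 for myo-4 SUMO against N2 (adjusted p = 0.0900). Neither was called, although the 95% intervals, which are not adjusted for the number of probe sets, ran from 0.03 to 0.41 and from 0.0036 to 0.39. Centring each array on its median gave 0.44 (adjusted p = 0.00218) for aex-3 SUMO and 0.34 (adjusted p = 0.0111) for myo-4 SUMO. Quantile normalization gave 0.26 (adjusted p = 0.0117) and 0.27 (adjusted p = 0.00959). The call of sod-1 thus depends on the scaling of the arrays. Its direction was upward in all 17 alternative settings, but few of them could have turned it. Changes to the filter or to the model leave the estimate as it is. With groups that do not overlap, leaving out an array cannot turn the sign either. The direction was therefore open only under the rescalings given above.

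The probe set of sod-4 (191998_at, gene on chromosome III) gave signals of 48.7, 47.9 and 41.9 in aex-3 SUMO and of 45.3, 49.4 and 50.3 in myo-4 SUMO. The N2 arrays gave 67.2, 68.3 and 92.2. The SUMO arrays all lay below the lowest N2 array, and N2 replicate 3 stood above the other N2 arrays. Group means were 46.2 ± 3.73 in aex-3 SUMO, 48.3 ± 2.66 in myo-4 SUMO and 75.9 ± 14.1 in N2. sod-4 fell by 0.69 ± 0.15 in aex-3 SUMO (limma, adjusted p = 0.00243), a fold change of 0.622 with a 95% interval of 0.498 to 0.776. It fell by 0.62 ± 0.15 in myo-4 SUMO (adjusted p = 0.00490), a fold change of 0.651 with an interval of 0.522 to 0.812. Without N2 replicate 3 the changes were -0.54 and -0.47, and both were still called. Of the members measured, sod-4 had the largest change in either line, and it was called in all 17 alternative settings of each comparison.

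The probe set of sod-5 (190168_at, gene on chromosome II) lay at or below the filter on most arrays. It gave 17.4, 11.6 and 17.8 in aex-3 SUMO, 8.77, 12.2 and 11.7 in myo-4 SUMO and 12.4, 15.5 and 10.96 in N2. Only 2 of the 9 arrays, both of aex-3 SUMO, exceeded their 40th percentile, so the gene was not tested. With the filter removed, the changes against N2 were 0.23 ± 0.26 in aex-3 SUMO and -0.22 ± 0.26 in myo-4 SUMO (limma, adjusted p = 0.562 and adjusted p = 0.598). The intervals, -0.34 to 0.80 and -0.79 to 0.35, leave room for changes in either direction.

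The mitochondrial gene sod-2 (192654_at, chromosome I) had signals of 815, 827 and 897 in aex-3 SUMO and 843, 892 and 811 in myo-4 SUMO. In N2 the signals were 831, 867 and 712. The 3 groups overlapped, with the lowest signal on N2 replicate 3. The means were 846 ± 44.5, 849 ± 40.7 and 803 ± 81.3 in aex-3 SUMO, myo-4 SUMO and N2. Against N2 the change was 0.08 ± 0.10 in aex-3 SUMO (limma, adjusted p = 0.552; 95% interval -0.15 to 0.31) and 0.08 ± 0.10 in myo-4 SUMO (adjusted p = 0.540; -0.14 to 0.31). The intervals reach fold changes of 0.903 and 0.905 at the low end and of 1.24 in both lines at the high end. Under median centring the change in aex-3 SUMO was 0.30 and was called (adjusted p = 0.0489). The other manganese enzyme gene, sod-3 (192617_at, X chromosome), gave 17.7, 15.4 and 27.3 in aex-3 SUMO, 13.9, 22.3 and 22.8 in myo-4 SUMO and 15.4, 21.3 and 21.7 in N2. Arrays within each group differed by more than the group means did, which were 20.1 ± 6.28, 19.7 ± 4.98 and 19.5 ± 3.55 in aex-3 SUMO, myo-4 SUMO and N2. The changes of 0.02 ± 0.26 and -0.0013 ± 0.26 were not called (limma, adjusted p = 0.953 and adjusted p = 0.998). Their 95% intervals spanned fold changes of 0.688 to 1.496 in aex-3 SUMO, and in myo-4 SUMO of 0.678 to 1.47, so a change of moderate size in this DAF-16 reporter gene was not detectable here.

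The probe set of the peroxisomal catalase gene ctl-2 (188687_s_at, chromosome II) had signals of 529.9, 595 and 505 in aex-3 SUMO and of 544, 600.0 and 605 in myo-4 SUMO. The N2 signals were 777, 709 and 855. All SUMO arrays lay below all N2 arrays, while the SUMO lines overlapped each other. The means were 543 ± 46.3 in aex-3 SUMO, 583 ± 34.2 in myo-4 SUMO and 781 ± 73.1 in N2. ctl-2 fell by 0.52 ± 0.11 in aex-3 SUMO (limma, adjusted p = 0.00213), a fold change of 0.697 with a 95% interval of 0.591 to 0.822. It fell by 0.42 ± 0.11 in myo-4 SUMO (adjusted p = 0.00846), a fold change of 0.749 with an interval of 0.635 to 0.882. Under median centring the change in myo-4 SUMO was -0.27 and no longer called (adjusted p = 0.0638), while that in aex-3 SUMO was -0.30 and called (adjusted p = 0.0379). On the assembly WBcel235 ctl-2, ctl-1 and ctl-3 stand next to each other on chromosome II. The manufacturer's s suffix of the probe set marks probes that match several transcripts. Signal from the neighbouring catalase genes therefore cannot be told apart from that of ctl-2, and the same suffix on the sod-1 probe set carries the same limit.

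**Figure D1:**
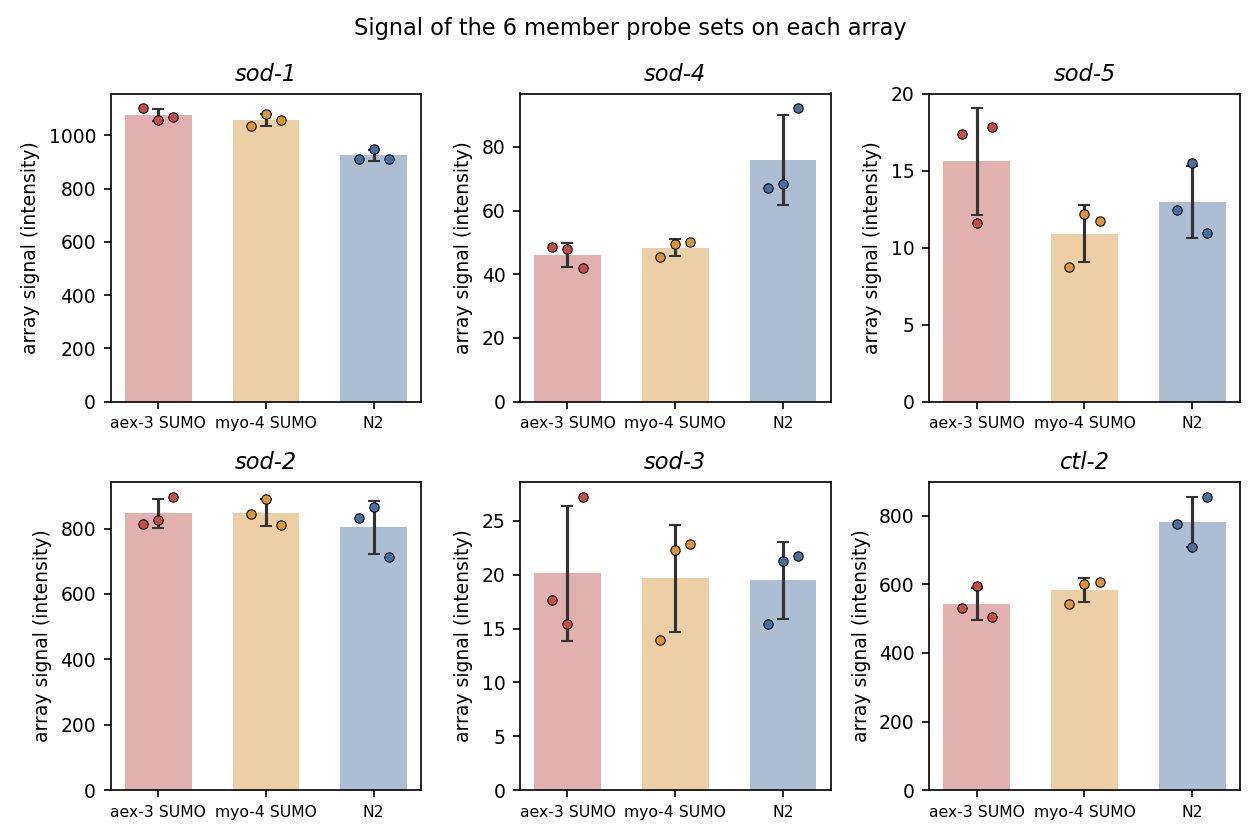
Linear array signal of the 6 measured genes, 1 panel per gene. Bars are group means from 0, error bars SD (n = 3), and points single arrays. The SUMO arrays of sod-4 and ctl-2 lie below all N2 arrays and those of sod-1 above them, while the groups of sod-2, sod-3 and sod-5 overlap.

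Of the 5 tested members, 2 were called lower and 0 higher in each SUMO line against N2. Over all tested probe sets 48.1% were called in aex-3 SUMO, 24.1% higher and 24% lower. In myo-4 SUMO 44.4% were called, 24% higher and 20.3% lower. Of these calls 50.1% were higher in aex-3 SUMO and 54.2% in myo-4 SUMO, shares that median centring moved to 71.5% and 70.0%. Groups that did not overlap were found for 3 of the 5 members in each line, sod-1, sod-4 and ctl-2, against 56.4% of all probe sets for aex-3 SUMO (27.4% higher, 29% lower) and 52.3% for myo-4 SUMO (27% higher, 25.3% lower). Both shares of the members lie near those of the whole array, so the counts are no result about this family. The comparisons share the N2 arrays, so the similar changes in the SUMO lines are not independent of each other.

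In the direct comparison of myo-4 SUMO with aex-3 SUMO the N2 signals do not enter the estimated change. They do enter its SE, interval and p-value, since the limma fit takes the spread from all groups together. Without N2 replicate 1 the probe sets called between the lines went from 26 to 63 higher and from 8 to 29 lower. The values that follow are from the fit to all arrays. None of the 5 members was called (0.239% of all probe sets were, 0.183% higher and 0.0563% lower), none had an unadjusted p under 0.05, and all 5 had overlapping groups, while 20.8% of all probe sets did not overlap (12.6% higher, 8.24% lower). The change was 0.10 ± 0.11 for ctl-2, with a 95% interval of -0.13 to 0.34. For sod-4 it was 0.07 ± 0.15 (-0.25 to 0.39), for sod-1 -0.02 ± 0.09 (-0.22 to 0.17) and for sod-2 0.0039 ± 0.10 (-0.22 to 0.23). sod-3 had the widest interval, -0.58 to 0.54 around a change of -0.02 ± 0.26. Adjusted p-values ran from 0.856 for ctl-2 to 0.996 for sod-2 in limma. In fold terms the intervals allow a ctl-2 level in myo-4 SUMO of 0.911 to 1.27 times that in aex-3 SUMO, so small differences between the lines were not detectable with these arrays.

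**Figure D2:**
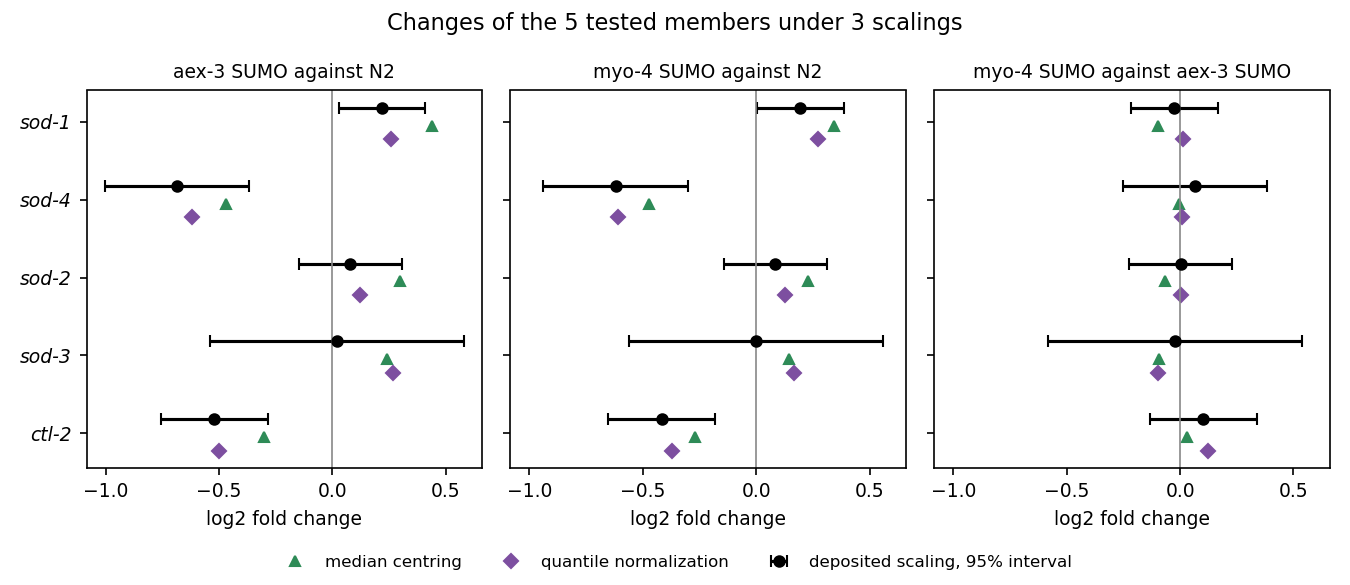
Log2 fold changes of the 5 tested genes in the 3 comparisons. Black points are the limma estimates with the deposited scaling and their 95% intervals, green triangles the estimates after median centring and purple diamonds those after quantile normalization. sod-4 and ctl-2 lie below 0 against N2 under each scaling, sod-1 lies above 0, and the intervals between the lines all include 0.

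A factor that scales a whole array cancels in the ratio of a pair of genes on that array. These ratios were added after the values had been seen and show unequal change of the genes in a pair, not which of them changed. The log2 ratio of the sod-1 to the ctl-2 signal was 1.06, 0.83 and 1.08 on the aex-3 SUMO arrays and 0.93, 0.85 and 0.81 on the myo-4 SUMO arrays. On the N2 arrays it was 0.23, 0.42 and 0.09. All SUMO arrays lay above the N2 arrays, as they had to, since the sod-1 signal itself was higher and the ctl-2 signal itself lower on each of them. The ratio was 1.67-fold higher in aex-3 SUMO and 1.53-fold higher in myo-4 SUMO than in N2 (log2 differences of 0.74 ± 0.12 and 0.61 ± 0.10). For sod-1 over sod-4 the ratio was 1.90-fold higher in aex-3 SUMO and 1.78-fold higher in myo-4 SUMO, with the separation fixed in the same way. These ratios therefore give sizes that a factor common to a whole array cannot move, with no test. Quantile normalization, which does not apply a common factor, can move them. The ratio of sod-1 to sod-2 overlapped between groups. Its log2 difference from N2 was 0.14 ± 0.09 in aex-3 SUMO and 0.11 ± 0.08 in myo-4 SUMO.

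**Figure D3:**
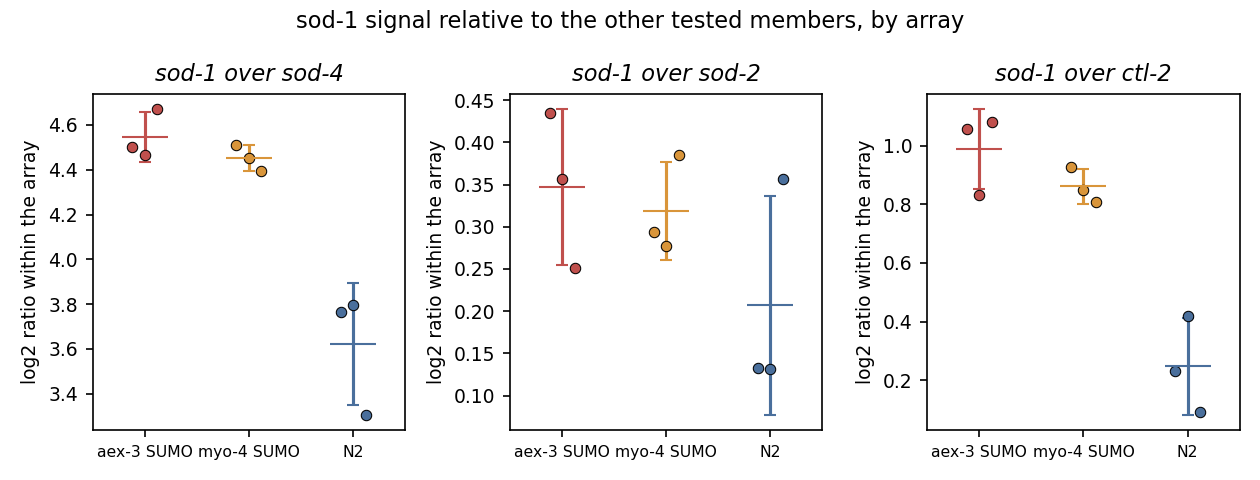
Log2 ratio of the sod-1 signal to that of sod-4, sod-2 and ctl-2 within each array. Points are arrays, horizontal marks group means and error bars SD (n = 3). The ratios to sod-4 and ctl-2 are higher on every SUMO array than on any N2 array, and those to sod-2 overlap.

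For the called members, the genes with the most similar pattern were sought among 13411 probe sets of other single genes. Likeness was the root mean square difference of the centred log2 values over the 9 arrays. These points share arrays, scaling and the offset between groups. Being picked for likeness to a called gene on the same arrays, the genes named next had to fall with it, and their values are a description with no test. The pattern of sod-4 was closest to those of clp-1, a calpain protease gene, and tent-5, at differences of 0.0653 and 0.0660, where the values of sod-4 themselves varied by 0.337 around their mean. The change of clp-1 was -0.65 in both SUMO lines. That of tent-5 was -0.71 in aex-3 SUMO and -0.68 in myo-4 SUMO. The pattern of ctl-2 was closest to those of cpr-3, a cathepsin B-like protease gene, and hsp-25, a small heat shock protein gene, at 0.0483 and 0.0562. The spread of ctl-2 itself was 0.244. The changes of cpr-3 were -0.57 in aex-3 SUMO and -0.48 in myo-4 SUMO, and those of hsp-25 were -0.58 and -0.46.

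Genes that act beside these enzymes were taken from 6 lists of 78 genes, of which 69 were tested. In aex-3 SUMO 14 of them rose (20.3%) and 19 fell (27.5%), and in myo-4 SUMO 11 rose (15.9%) and 16 fell (23.2%). Over all probe sets, as given above, 24.1% were higher and 24% lower in aex-3 SUMO, and 24% and 20.3% in myo-4 SUMO. Under median centring 27 list genes were called higher and 13 lower in aex-3 SUMO, and 20 higher and 14 lower in myo-4 SUMO. The balance of the list calls thus turns with the scaling, and that of all probe sets moved the same way. Over all probe sets median centring called 5129 higher and 2049 lower in aex-3 SUMO, against 3423 and 3410 with the deposited scaling. In myo-4 SUMO it called 4616 and 1980, against 3412 and 2888. The turn is therefore no result about the lists, here or in the counts for each list below. No list gene was called between the lines with the deposited scaling, median centring or quantile normalization. Without N2 replicate 1 a thioredoxin list gene and a metal list gene were (1 lower in each of those lists). The other alternatives were not examined for list genes between the lines. Median centring used the array medians given above, which include probe sets too dim to test. The tested probe sets can therefore keep a common shift after it. The median change of all tested probe sets was -0.04 in aex-3 SUMO and 0.0039 in myo-4 SUMO, and 0.18 and 0.15 after median centring. The list medians shift with it. For peroxiredoxins and thioredoxins median centring gave 0.43 and 0.17, for the glutathione list 0.24 and 0.24, and for peroxisome biogenesis -0.03 and -0.07. Sources of superoxide and peroxide changed by a median of -0.09 in aex-3 SUMO and -0.06 in myo-4 SUMO, and by 0.13 and 0.08 under median centring. Metal handling genes changed by -0.16 and -0.15, and by 0.06 and 0.00015 under median centring. Without N2 replicate 1 the thioredoxin list medians were 0.020 and -0.08, those of the glutathione list 0.05 and 0.0020, and those of the regulators 0.02 and -0.02. Peroxisome genes that fell then numbered 4 in aex-3 SUMO and 5 in myo-4 SUMO.

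Peroxiredoxins and thioredoxins remove peroxide or reduce oxidised protein thiols. Of 9 tested genes of this list, 3 rose and 1 fell in aex-3 SUMO (median 0.21) and 2 rose and 1 fell in myo-4 SUMO (median 0.02). Under median centring 5 were called higher and 1 lower in aex-3 SUMO, and 4 higher and 1 lower in myo-4 SUMO. trxr-2, a mitochondrial thioredoxin reductase gene, had 105, 71.9 and 102 in aex-3 SUMO and 92.0, 79.3 and 63.4 in myo-4 SUMO, against 39.5, 29.4 and 38.2 in N2. It rose by 1.33 ± 0.18 and 1.09 ± 0.18 (limma, adjusted p = 0.000153 and 0.000586), and no SUMO array overlapped N2. trx-3, a thioredoxin gene of the intestine, fell by 1.104 and 0.99 (adjusted p = 0.000565 and 0.00131). msra-1, a methionine sulfoxide reductase gene, rose by 1.01 ± 0.15 in aex-3 SUMO (adjusted p = 0.000214). In myo-4 SUMO its change was 0.28 ± 0.15 and not called (adjusted p = 0.135), but was called under median centring (0.43, adjusted p = 0.0326) and without N2 replicate 2 (0.40, adjusted p = 0.0481). prdx-6, a peroxiredoxin gene, rose by 0.42 and 0.40 (adjusted p = 0.0199 and 0.0277). That call ended under quantile normalization in both lines (adjusted p = 0.0509 and 0.0684). In aex-3 SUMO it ended without replicate 2 or 3 of that line (adjusted p = 0.0601 and 0.0678). In myo-4 SUMO it ended without N2 replicate 1 (0.26, adjusted p = 0.0667) or any 1 of its own arrays (adjusted p = 0.0520 to 0.0936), and in the fit on only the groups compared (adjusted p = 0.0616).

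Glutathione peroxidases use the peptide glutathione to reduce peroxides. Of 13 tested genes of the glutathione list, 3 rose and 3 fell in aex-3 SUMO (median 0.02) and 2 rose and 2 fell in myo-4 SUMO (median 0.10, and -0.03 under quantile normalization). Under median centring 6 were called higher and 2 lower in aex-3 SUMO, and 5 higher and 2 lower in myo-4 SUMO. The glutathione peroxidase gene gpx-6 gave 45.5, 43.6 and 37.0 in aex-3 SUMO and 37.1, 38.3 and 34.4 in myo-4 SUMO. In N2 it gave 77.9, 96.6 and 201, with N2 replicate 3 far above the others. Its changes were -1.42 ± 0.26 and -1.61 ± 0.26 (limma, adjusted p = 0.000890 and 0.000446), and -1.02 and -1.21 without N2 replicate 3. gpx-7 fell too, with changes of -0.89 and -1.41 (adjusted p = 0.00184 and 0.000117). gss-1, the glutathione synthetase gene, rose by 0.74 in both lines (adjusted p = 0.00345 and 0.00400). glrx-5, a glutaredoxin gene, rose by 0.45 in aex-3 SUMO (adjusted p = 0.0138), a call that ended under quantile normalization (0.32, adjusted p = 0.0717) and without aex-3 SUMO replicate 3 (0.39, adjusted p = 0.0656). Its change in myo-4 SUMO was 0.30 (adjusted p = 0.0839), and was called under median centring (0.44, adjusted p = 0.0191) and without N2 replicate 2 (0.43, adjusted p = 0.0166).

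The peroxisome houses ctl-2, and the prx genes encode the factors that build it, with roles known best from yeast and human cells. All 11 were tested. The median change was -0.25 in aex-3 SUMO, where 2 rose and 3 fell, and -0.21 in myo-4 SUMO, where 1 rose and 2 fell. Under median centring 2 were called higher and 1 lower in aex-3 SUMO, and 2 higher and 2 lower in myo-4 SUMO. prx-5, whose product is the receptor that brings matrix enzymes such as catalase to the peroxisome, had 93.6, 92.5 and 94.0 in aex-3 SUMO and 98.8, 93.6 and 84.5 in myo-4 SUMO. The N2 arrays gave 122, 119.6 and 144, all above the SUMO arrays. prx-5 fell by 0.45 and 0.47 (limma, adjusted p = 0.00829 and 0.00727), and under median centring its change in aex-3 SUMO was -0.23 and not called (adjusted p = 0.142). prx-13, a gene of the docking complex at the peroxisomal membrane, fell by 0.87 and 0.70 (adjusted p = 0.000307 and 0.00133). prx-19, which serves the import of peroxisomal membrane proteins, rose by 0.71 and 0.47 (adjusted p = 0.000288 and 0.00422). The call of prx-2 in aex-3 SUMO (-0.62, adjusted p = 0.0300) ended in 8 of 16 alternatives, among them those without N2 replicate 2 or 3 or without aex-3 SUMO replicate 1 or 3 (-0.60, -0.39, -0.60 and -0.53, adjusted p = 0.0678, 0.129, 0.0740 and 0.104). In myo-4 SUMO prx-2 was called only without N2 replicate 1 (-0.63, adjusted p = 0.0127).

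Of 8 tested genes that are sources of superoxide and peroxide, 0 rose and 1 fell in aex-3 SUMO and 1 rose and 1 fell in myo-4 SUMO. Under median centring 3 were called higher and 0 lower in aex-3 SUMO, and 1 higher and 1 lower in myo-4 SUMO. isp-1, the Rieske iron-sulphur protein gene of respiratory complex III, fell by 0.39 and 0.42 (limma, adjusted p = 0.00559 and 0.00378), and under median centring the change in aex-3 SUMO was -0.17 and not called (adjusted p = 0.196). acox-1.1, a gene of the peroxisomal acyl-CoA oxidases, which release hydrogen peroxide, changed by 0.34 in aex-3 SUMO (adjusted p = 0.131) and rose by 0.58 in myo-4 SUMO (adjusted p = 0.0181). The first was called under median centring (0.55, adjusted p = 0.0172) and without N2 replicate 2 (0.57, adjusted p = 0.00600). The second ended under quantile normalization (0.46, adjusted p = 0.0708) and without N2 replicate 3 (adjusted p = 0.0517) or myo-4 SUMO replicate 2 (adjusted p = 0.0718). bli-3, the dual oxidase gene, was not called (-0.26 and -0.24, adjusted p = 0.0791 and 0.0973), except under quantile normalization in myo-4 SUMO (-0.30, adjusted p = 0.0468).

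The dismutases carry copper, zinc or manganese, and the metal list held transporters, chaperones, ferritins and metallothioneins. Of 8 tested genes, 2 rose and 3 fell in aex-3 SUMO and 1 rose and 3 fell in myo-4 SUMO. Under median centring 3 were called higher and 2 lower in aex-3 SUMO, and 1 higher and 2 lower in myo-4 SUMO. The metallothionein gene mtl-1 had 118, 118 and 42.0 in aex-3 SUMO and 37.4, 22.2 and 32.6 in myo-4 SUMO, against 386, 318 and 832 in N2. mtl-1 fell in both lines, with changes of -2.46 ± 0.39 and -3.89 ± 0.39 (limma, adjusted p = 0.000370 and 2.26e-05). cua-1, a copper-transporting ATPase gene, rose by 0.55 and 0.50 (adjusted p = 0.00671 and 0.0124). cuc-1, a copper chaperone gene, had 484, 513 and 443 in aex-3 SUMO and 375, 326 and 283 in myo-4 SUMO, against 265, 384 and 362 in N2. It rose by 0.52 in aex-3 SUMO (adjusted p = 0.0118) and changed by -0.03 in myo-4 SUMO (adjusted p = 0.880), and the difference between the lines was not called. smf-3, a divalent metal transporter gene, fell by 0.91 in myo-4 SUMO (adjusted p = 0.00326). Its call in aex-3 SUMO (-0.60, adjusted p = 0.0275) ended in 8 of 16 alternatives, among them those without N2 replicate 1 or 3 (-0.57 and -0.48, adjusted p = 0.0504 and 0.101) and without each of the aex-3 SUMO arrays (adjusted p = 0.0556 to 0.0804).

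Among 20 tested regulators, 4 rose and 8 fell in aex-3 SUMO and 4 rose and 7 fell in myo-4 SUMO. Under median centring 8 were called higher and 7 lower in aex-3 SUMO, and 7 higher and 6 lower in myo-4 SUMO. Their medians of -0.10 and -0.11 turned to 0.12 and 0.03 with it. pqm-1, a zinc finger factor gene that acts with and against DAF-16, had 201, 227 and 171 in aex-3 SUMO and 172, 192 and 226 in myo-4 SUMO. The N2 arrays had 499.6, 502 and 640.0. pqm-1 fell by 1.45 ± 0.15 and 1.47 ± 0.15 (limma, adjusted p = 2.9e-05 and 2.21e-05). aak-2, which encodes a catalytic subunit of AMP-activated kinase, fell by 0.85 and 0.83 (adjusted p = 0.000923 and 0.00121). hsf-1, the heat shock factor gene, rose by 0.62 and 0.74 (adjusted p = 0.00141 and 0.000489). skn-1, a gene related to the Nrf factors of oxidative stress defence, rose by 0.53 and 0.47 (adjusted p = 0.00913 and 0.0194). In myo-4 SUMO the skn-1 call ended under quantile normalization (0.36, adjusted p = 0.0884) and without myo-4 SUMO replicate 1 or 2 (adjusted p = 0.0654 and 0.0559). daf-16 itself had 180.2, 165 and 128 in aex-3 SUMO and 168, 158 and 165 in myo-4 SUMO, against 234, 159 and 157 in N2. Its changes of -0.20 ± 0.17 and -0.14 ± 0.17 were not called (adjusted p = 0.323 and 0.510), and were slightly above 0 under median centring (0.014 and 0.0067). daf-2, the insulin receptor gene, was too dim to test.

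**Figure D4:**
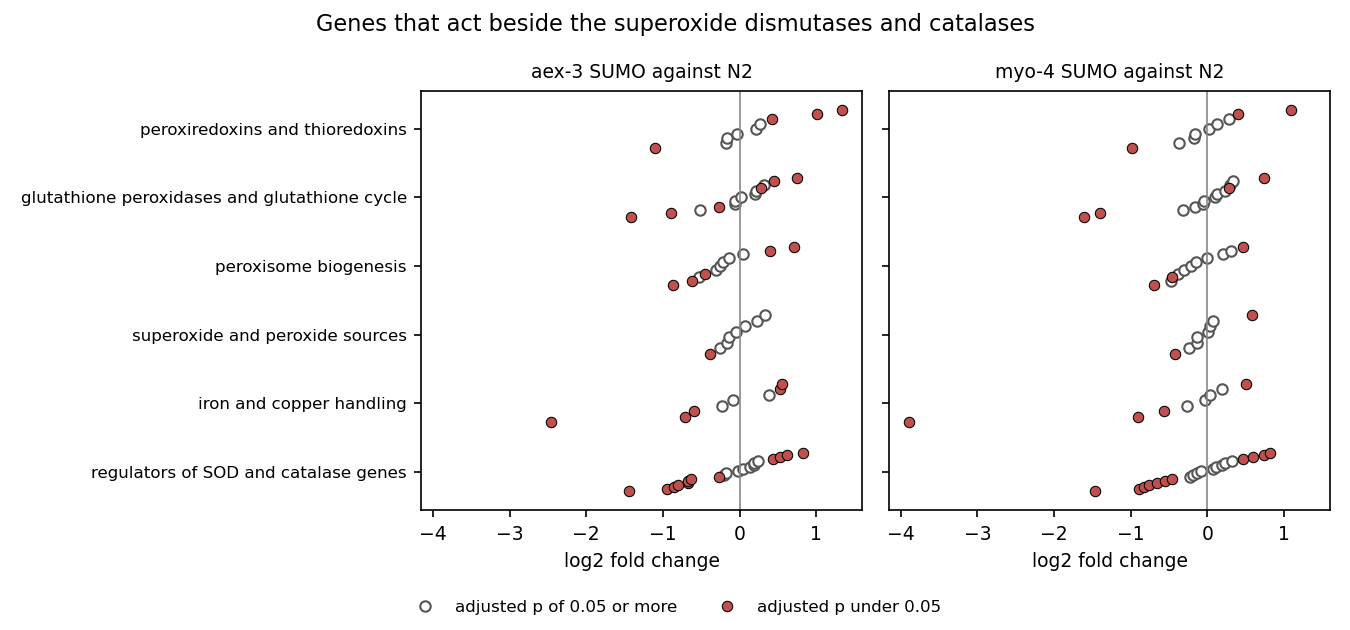
Log2 fold changes against N2 of the 69 tested genes of 6 lists that act beside the superoxide dismutases and catalases, aex-3 SUMO at left and myo-4 SUMO at right. Each circle is a gene, filled where its adjusted p was under 0.05. Filled circles lie on both sides of 0 in most lists, and the lowest in both panels is mtl-1.

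Markers of tissues and of stage moved with the groups in which sod-4 and ctl-2 fell. Of 6 intestine markers on the array 5 fell in each SUMO line, and their summed signal was 9472 to 10502 in aex-3 SUMO, 8362 to 11280.4 in myo-4 SUMO, against 15832 to 17076 in N2. Of 7 neuron markers 6 fell in aex-3 SUMO and 5 in myo-4 SUMO, with sums of 1151 to 1295 and 1258 to 1364 against 1899 to 2114 in N2. Of 7 body wall muscle markers 6 and 5 fell, with sums of 8606 to 8753 and 8114 to 9605 against 11103 to 13216. Of 7 epidermis markers 3 fell in aex-3 SUMO, and 1 rose and 2 fell in myo-4 SUMO. Their sums of 11513 to 12636 and 10305 to 13759 overlapped the N2 range of 13551 to 15099 in myo-4 SUMO. Of 10 adult germline and yolk genes, 9 lay far above the array medians in each group, in animals that the labels call L1 larvae. The exception was spe-9, a sperm gene, with means of 21.4 in aex-3 SUMO, 22.9 in myo-4 SUMO and 29.7 in N2. Of 10 such markers 7 rose in aex-3 SUMO and 6 in myo-4 SUMO, with sums of 17244 to 18838 and 15560 to 18754 against 10959 to 14300.0 in N2. All these sums are of linear signal, so the brightest genes weigh most. In the intestine list these were asp-1 and cpr-4, with N2 means of 7175 and 4177. In the germline and yolk list they were vit-6 and vit-5, with N2 means of 4451 and 3527. vit-6 was not called in either line (0.14 and 0.15, limma, adjusted p = 0.335 in both). vit-5 rose by 0.58 and 0.43 (adjusted p = 0.00325 and 0.0185). That list joins germline and yolk genes, so its sum does not stand for a single tissue. The intestine marker that did not fall was act-5, with changes of -0.02 in aex-3 SUMO and 0.16 in myo-4 SUMO. No marker was at 0 on any array. Under median centring 5 intestine, 4 neuron and 4 body wall muscle markers were called lower in each SUMO line. Of the epidermis markers 1 was then called higher and 2 lower in each line. Of the germline and yolk markers 8 in aex-3 SUMO and 7 in myo-4 SUMO were higher. Over all probe sets, with the deposited scaling, 24% were called lower in aex-3 SUMO and 20.3% in myo-4 SUMO, and 24.1% and 24% higher. Median centring took the probe sets called lower from 3410 to 2049 in aex-3 SUMO and from 2888 to 1980 in myo-4 SUMO. Those called higher went from 3423 to 5129 and from 3412 to 4616. The log2 ratio of 3' to 5' probe sets, averaged over 5 worm control transcripts, was 0.27 to 0.29 in aex-3 SUMO, 0.20 to 0.38 in myo-4 SUMO and 0.29 to 0.52 in N2. The part of tissue composition, stage and RNA quality in the changes of the dismutase and catalase genes was not tested.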

How the data were processed

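RNA of 9 whole-animal samples was measured on single-colour arrays. The authors deposited 1 linear intensity for each probe set. GCOS is the tool named in the submitters' processing notes, with no version. The 2% trimmed means of the arrays differed by 0.0089%, so the deposited scaling was kept. No detection calls were used. Of 22625 probe sets, 77 control probe sets were set aside. Platform annotation gave 20766 probe sets 1 gene, 887 several and 895 none, and chromosomes came from WBcel235.

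Values were transformed as log2(signal + 1.62), the pseudocount being the median over arrays of the 10th percentile, which draws changes of dim genes toward 0. limma 3.58.1 in R 4.3.3 (lmFit, eBayes with an intensity trend) was fitted to all 9 arrays and 14204 probe sets, with Benjamini-Hochberg adjustment per comparison. The fit was tested on simulated data, where the required share of recovered changes was lowered after a first run had missed it, with no change to the fit. Each list gene was represented by its brightest probe set. All members were named, with up to 4 called genes per list by p, 5 fixed regulators or oxidases, and 2 genes of most similar pattern per called member. The result of 1 regulator that this rule names is not reported here. Replicate numbers were not taken as pairs (correlations of deviations -0.19 to 0.029). The members and lists were chosen with earlier results of these data known. The number of arrays limits the precision. Sequences were not used here.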

Additional observations from a re-analysis of the deposited data

How the results depend on the processing

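The 17 alternatives were quantile normalization, median centring, no filter, a 60th percentile filter, a pseudocount of 16, the replicate block, fits on only the groups compared, no intensity trend, and leaving out each array. Of 252 values of tested members under them, 226 kept their direction and side of the threshold. The number of members called higher in aex-3 SUMO, 0 with the deposited scaling, was 1 under quantile normalization, 2 under median centring and 1 with the 60th percentile filter, where sod-1 changed by 0.22 (adjusted p = 0.0454) with fewer probe sets tested. In myo-4 SUMO it was 1 under quantile normalization and 1 under median centring, and the number called lower, 2, was 1 under median centring. The calls over all probe sets moved as well. Those called higher in aex-3 SUMO numbered 3423 with the deposited scaling, 3441 under quantile normalization and 5129 under median centring. In myo-4 SUMO they numbered 3412, 3283 and 4616, and median centring took those called lower from 2888 to 1980. The shifts under median centring are thus no result about the members. Taking the replicate number as a block (the replicate block) cannot move the size of a change, since each group holds each replicate number. It can move the p-values, and it changed no call of a member.

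Signs turned for some changes that were not called, the largest of them that of daf-16 in aex-3 SUMO (-0.20). Against N2, with 1 array left out, sod-2 ran from -0.0055 to 0.14 in aex-3 SUMO and from -0.0016 to 0.14 in myo-4 SUMO, and sod-3 from -0.20 to 0.18 and from -0.15 to 0.21. In myo-4 SUMO sod-3 was 0.17 under quantile normalization, 0.15 under median centring and 0.0031 with a pseudocount of 16. There cuc-1 was 0.12 under median centring and -0.19 to 0.072 with 1 array left out. daf-16 was 0.014 in aex-3 SUMO and 0.0067 in myo-4 SUMO under median centring, and -0.24 to 0.046 in myo-4 SUMO with 1 array left out. Between the lines sod-1 was 0.013 under quantile normalization, and under median centring sod-2 was -0.067 and sod-4 -0.0051. With 1 array left out the differences ran from -0.032 to 0.047 for sod-2, from -0.18 to 0.20 for sod-3 and from -7.6e-05 to 0.11 for sod-4. The cause of these shifts was not tested. sod-3 and sod-5 lay near the filter's signal, which limits what their values can show.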

Other observations

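The array also holds 3 control probe sets named for worm catalase, for the 3', middle and 5' parts of a transcript, without saying which catalase gene. They were examined after the other values had been seen, in a fit that kept control probe sets and used no filter. The middle set gave 51.7, 54.3 and 52.5 in aex-3 SUMO, 49.3, 51.8 and 65.7 in myo-4 SUMO and 55.6, 57.5 and 58.3 in N2. Its change against N2 was -0.11 ± 0.14 in aex-3 SUMO and -0.05 ± 0.14 in myo-4 SUMO (limma, adjusted p = 0.603 and 0.846), with 95% intervals of -0.41 to 0.19 and -0.35 to 0.25. The 3' set changed by -0.35 ± 0.21 and -0.25 ± 0.21 (adjusted p = 0.240 and 0.425) and the 5' set by -0.07 ± 0.17 and -0.17 ± 0.17 (adjusted p = 0.797 and 0.540). None of the 3 sets was called in either line.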
